A study of Mus musculus with 12 samples.

Results

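Urokinase (Plau), its receptor (Plaur), tissue plasminogen activator (Plat), the serpins Serpine2, Serpinb6a and Serpinb6c, and the metalloproteinase inhibitors Timp1, Timp2 and Timp3 were examined in ID8, a line of mouse ovarian carcinoma cells that arose from surface epithelium of the ovary. These 9 genes were selected on their function and on their measured difference in input RNA, since Plau and Serpinb6c are among the strongest rises of that contrast, and the table of expression values lists 8 of them among 14852 genes. All 8 passed the filter on low values, among 11449 genes that did. Serpine2 enters only the search of promoters, and its expression and peaks were not analysed here. Because that contrast entered the choice, the members' differences in input RNA are given as a description, with no p-value. The compared groups were cisplatin-treated ID8 cells and control ID8 cells, with 3 input libraries each. The drug, a platinum compound that crosslinks DNA, has no dose or time in the labels, nor do they say what the controls received, and both groups are of the same line. Each RNA preparation also gave a fraction precipitated with an antibody against N4-acetylcytidine (ac4C), a base that the enzyme NAT10 writes into RNA, so the series holds 12 libraries in 4 groups. The precipitated libraries enter only through the authors' deposited table of peaks, which has no value per library.

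Urokinase is a secreted serine protease that turns plasminogen into plasmin, a protease that degrades fibrin and matrix proteins and activates latent growth factors. Its receptor, anchored in the membrane by a lipid, holds it at the cell surface, while tissue plasminogen activator acts mainly on fibrin. Serpins trap serine proteases in a covalent complex, and the Timp proteins inhibit matrix metalloproteinases and related ADAM proteases. Urokinase and its receptor are long known from invasion and matrix turnover of carcinoma cells, ovarian carcinoma included.

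The input libraries held 22201704 to 30159427 fragments in listed genes for cisplatin and 20682920 to 21900044 for control, recovered from the steps of the FPKM values (fragments scaled to transcript length and library size). Library levels correlated at Pearson r of 0.9894 to 0.9948 within cisplatin, 0.9954 to 0.9963 within control and 0.8331 to 0.8472 between the treatments, across genes. Of 13 epithelial markers 12 were listed, with summed levels of 3599 to 3996 FPKM in cisplatin and 2497 to 2539 FPKM in control libraries. Of the 10 markers tested, 6 were called higher and 3 lower by limma. The keratin gene Krt18 averaged 894 FPKM in cisplatin and 473 FPKM in control, whereas Wt1 averaged 12.4 FPKM in cisplatin and 45.1 FPKM in control, and Cdh2 and Upk3b were lower as well. The marker Krt7 was near 0 in both treatments, with means of 0.0105 FPKM in cisplatin and 0.178 FPKM in control. Only 2 of 7 endothelial markers were listed (summed level 2.75 to 2.96 FPKM in cisplatin, 0.723 to 0.931 FPKM in control), and 2 of 8 leukocyte markers (7.53 to 9.92 FPKM in cisplatin, 2.22 to 2.57 FPKM in control). The endothelial marker Vwf and the leukocyte marker Cd79a were listed at 0 in all control libraries. In cisplatin libraries they were low but above 0, with means of 0.18 and 0.228 FPKM. Their listed companions were present in both treatments and called higher by limma. Tek, of endothelial cells, averaged 2.64 FPKM in cisplatin and 0.846 FPKM in control. It passed the filter only through its cisplatin libraries, so its call is given as a description. Cd68, of leukocytes, averaged 8.89 FPKM in cisplatin and 2.41 FPKM in control. Pdgfrb, of fibroblasts, was listed at 0 in all cisplatin libraries. Of 7 fibroblast markers 4 were listed, with sums of 17.1 to 18.7 FPKM in cisplatin and 23.7 to 24.6 FPKM in control. Of the 3 fibroblast markers tested, 1 was called higher and 2 lower by limma. Whether these shifts have a part in the results below was not tested.

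For 7 of the 9 genes RefSeq's promoter table (GRCm38.p6) held an entry, with 8 start sites in all. The following lines give 250 bases upstream of the start site of Plaur and of the first of 2 start sites of Serpinb6a, because both were over 2 times higher in cisplatin libraries, and a short stretch from Serpinb6c, the member with the most extreme difference. The tabled starts of Plaur and Serpinb6c lie inside the annotated span of the gene, so these 2 stretches do too. Capitals mark matches to the AP-1 motif TGANTCA or to the GC box GGGCGG (or its complement), searched on both strands.

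Plaur, chr7:24462233-24462482, plus strand: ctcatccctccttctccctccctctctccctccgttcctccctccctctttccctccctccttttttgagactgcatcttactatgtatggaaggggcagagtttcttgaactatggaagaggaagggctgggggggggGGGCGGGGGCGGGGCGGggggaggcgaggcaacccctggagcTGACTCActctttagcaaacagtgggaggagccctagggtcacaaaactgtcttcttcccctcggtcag

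Serpinb6a, chr13:34002795-34003044, minus strand: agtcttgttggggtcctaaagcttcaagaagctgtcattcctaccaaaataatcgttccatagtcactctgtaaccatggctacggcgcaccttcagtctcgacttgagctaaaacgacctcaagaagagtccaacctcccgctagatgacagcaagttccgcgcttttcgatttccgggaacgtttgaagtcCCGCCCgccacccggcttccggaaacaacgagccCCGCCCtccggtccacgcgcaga

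Serpinb6c, chr13:33905253-33905282, minus strand: tggaatctcagaGGGCGGggaccaggggtg

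Among the members with an entry, Plaur alone had an AP-1 match, which lay 69 to 63 bases before the start and which 6.75% of all 32851 promoters of this length hold. The GC box was in 7 of the 8 windows, the second start of Serpinb6a being the one without, against 32.7% of all promoters, and Plaur had 3 matches, of which the 2 nearest the start share a base. No member window held the CRE motif TGACGTCA (1.55% of all promoters), the TATA box TATAAA (12.4%) or a p53 half-site (7.13%). These are matches of letters and not sites of binding.

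Plau, the urokinase gene (ENSMUSG00000021822, chromosome 14, 20836662 to 20843388, mm10), was the plasminogen activator with the higher level after cisplatin. It measured 13.5, 14.2 and 14.3 FPKM in cisplatin replicates 1, 2 and 3, against 1.01, 1.18 and 0.82 FPKM in control replicates 1, 2 and 3. Every cisplatin library lay more than 10 FPKM above every control library. The means were 14 ± 0.42 FPKM in cisplatin and 1.00 ± 0.18 FPKM in control (SD, n = 3 each), a ratio of 13.9 and a difference of 2.91 on the scale of log2(FPKM + 1) with a standard error of 0.076. The values rest on 777, 1025 and 746 fragments in cisplatin and 54, 64 and 42 fragments in control libraries, and the depth-scaled ratio of these counts was 13.9 with a 95% counting interval of 11.8 to 16.4. Plau held place 83 of 11449 when genes were ordered by this difference, from the highest down. In bulk RNA a change in the number of cells with a transcript and a change per cell cannot be told apart.

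Plaur, the receptor gene (ENSMUSG00000046223, chromosome 7, 24460937 to 24475970), was higher as well, by a smaller factor. It measured 25.1, 28.7 and 24.7 FPKM in cisplatin and 9.29, 9.31 and 8.17 FPKM in control libraries. The groups did not overlap, with means of 26.2 ± 2.22 FPKM in cisplatin and 8.92 ± 0.65 FPKM in control, a ratio of 2.93 and a log2 difference of 1.45 (SE 0.073). The receptor RNA thus stood at 1.87 ± 0.15 times the level of urokinase RNA in cisplatin libraries and at 9.02 ± 1.05 times that level in control libraries, both per length.

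Plat, the other plasminogen activator gene (ENSMUSG00000031538, chromosome 8, 22757722 to 22782848), differed little. It measured 8.99, 8.68 and 8.17 FPKM in cisplatin and 10.1, 9.48 and 8.85 FPKM in control libraries, and the groups overlapped. Its log2 difference was -0.12 (SE 0.060). The level of Plau was 1.63 ± 0.12 times that of Plat in cisplatin libraries and 0.106 ± 0.017 times that of Plat in control libraries, so the order of the activators differed between the treatments.

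**Figure D1:**
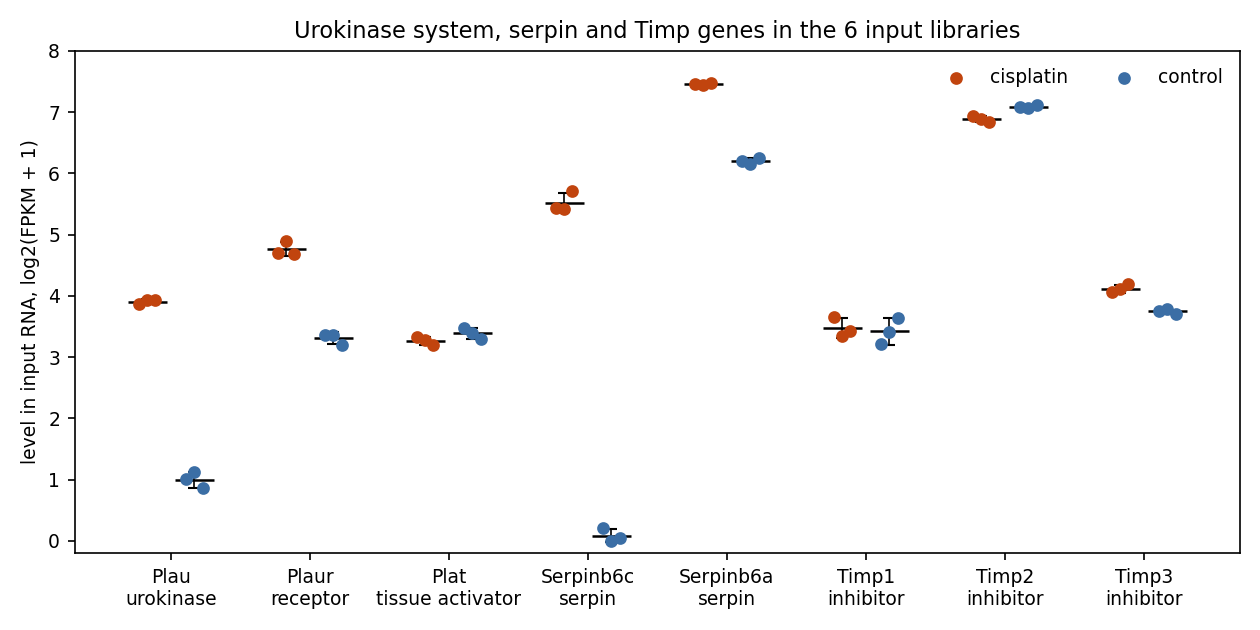
Levels of the 8 listed members in input RNA on the y axis as log2(FPKM + 1), with cisplatin in orange and control in blue; each point is a library, bars are the mean and SD of 3. Plau, Plaur, Serpinb6c, Serpinb6a and Timp3 lie wholly higher in cisplatin, Timp2 wholly lower, and Plat and Timp1 overlap.

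Serpinb6c and Serpinb6a belong to the clade B serpins, which lack a classical signal peptide and act mostly inside cells, and they lie near each other on chromosome 13. Serpinb6c (ENSMUSG00000052180, 33879816 to 33905726) measured 42.3, 41.8 and 51.3 FPKM in cisplatin libraries, against 0.16, 0 and 0.033 FPKM in control libraries. Nearly all of its fragments came from cisplatin libraries, with 1430, 1777 and 1573 fragments there and 5, 0 and 1 fragments in control replicates 1, 2 and 3. The depth-scaled ratio of the counts was 696 with a 95% counting interval of 319 to 1896, and the log2 difference of 5.44 (SE 0.096), which the added 1 FPKM pulls down, held place 4 of 11449. Serpinb6a (ENSMUSG00000060147, 33917918 to 34002794), known as an inhibitor of cathepsin G and other serine proteases, measured 175, 172 and 177 FPKM in cisplatin and 72.7, 69.9 and 74.7 FPKM in control libraries. The groups lay far apart, with a ratio of means of 2.41 and a log2 difference of 1.26 (SE 0.034).

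Another paralog, Serpinb6b, also encodes a clade B serpin and is not one of the members; it moved the other way. It averaged 154 ± 6.67 FPKM in cisplatin and 318 ± 3.89 FPKM in control libraries, and fell by 1.04 on the log2 scale (SE 0.038, limma adjusted p = 4.4e-07). The 3 paralogs together summed to 374 ± 14 FPKM in cisplatin libraries (365 to 390) and 390 ± 5.81 FPKM in control libraries (386 to 397). These sums overlapped, whereas the parts did not. The overlap holds for FPKM as deposited and depends on the unit. FPKM over all listed genes also summed higher in cisplatin (275195 to 278678) than in control libraries (258545 to 259158). A sum of fragments, not divided by length, would weight the paralogs differently, so no constant total is read from the FPKM sum. Serpinb6a made up 46.7% ± 1.22 of the sum in cisplatin libraries and 18.6% ± 0.386 in control, Serpinb6b 41.2% ± 0.347 and 81.4% ± 0.399, and Serpinb6c 12% ± 0.953 and 0.0165% ± 0.0217 in the same order of treatments. The paralogs are similar in sequence and the labels do not say how reads that match several of them were counted, so the split between them is uncertain; its part in these differences was not tested.

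**Figure D2:**
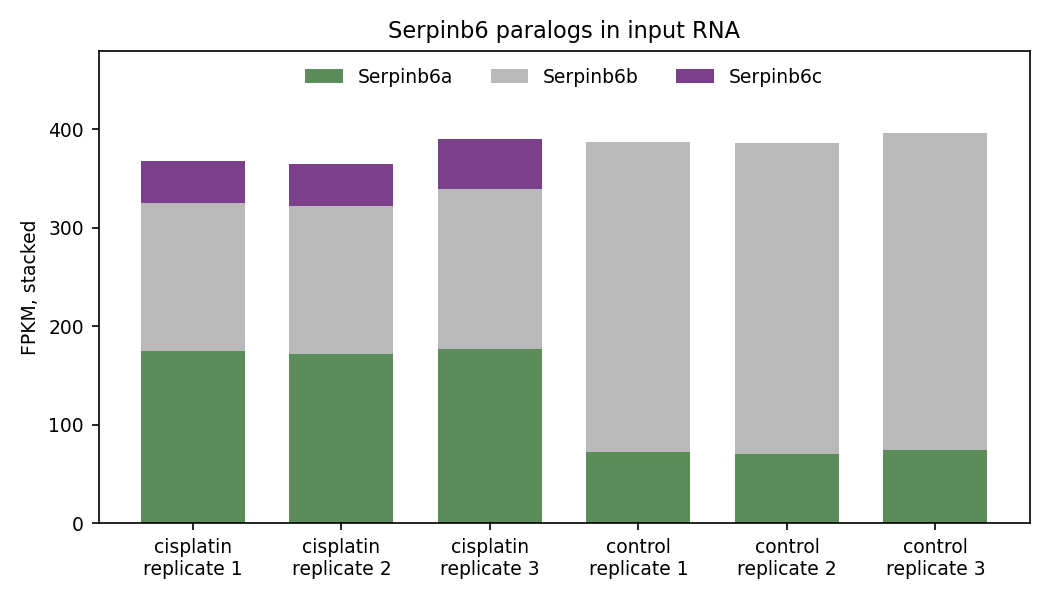
Stacked FPKM of Serpinb6a, Serpinb6b and Serpinb6c on the y axis for each input library, cisplatin replicates on the left and control replicates on the right. The column heights overlap in FPKM as deposited (365 to 390 FPKM in cisplatin, 386 to 397 FPKM in control), while the composition differs.

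The inhibitors of metalloproteinases differed little. Timp3 (ENSMUSG00000020044, chromosome 10, 86300412 to 86349505), which stays bound to the matrix, measured 15.7, 16.2 and 17.2 FPKM in cisplatin and 12.5, 12.8 and 12.1 FPKM in control libraries. These values did not overlap, and the log2 difference was 0.37 (SE 0.047). Timp2 (ENSMUSG00000017466, chromosome 11, 118301061 to 118355411), which also takes part in activating MMP2 at the cell surface, measured 122, 117 and 113 FPKM in cisplatin and 135, 133 and 137 FPKM in control libraries. All cisplatin libraries were below all control libraries, by 0.20 on the log2 scale (difference -0.20, SE 0.035). Timp1 (ENSMUSG00000001131, X chromosome, 20870166 to 20874737), a soluble inhibitor, measured 11.5, 9.11 and 9.75 FPKM in cisplatin and 8.23, 9.64 and 11.5 FPKM in control libraries. Its groups overlapped over most of their range, and the log2 difference of 0.05 was below its standard error of 0.124.

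In the limma fit over all genes, 5 members lay past the adjusted p of 0.05 as higher and 1 as lower, and Plat and Timp1 did not pass it. The background was high, as 81.3% of all tested genes were called, 40.1% higher and 41.1% lower, and in 84.2% the 3 cisplatin libraries did not overlap the 3 control libraries, which 6 of the 8 members showed. Since this contrast entered the choice of members, these counts are no test of them and nothing is read from them. Serpinb6c also passed the filter only through its cisplatin libraries. The median log2 difference of the 8 members was 0.81, beside -0.003 over all genes tested. Without cisplatin replicate 1, 2 or 3, where Serpinb6c leaves the filter, it was 0.40, 0.37 or 0.33.

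The order of the levels within a treatment also differed. In cisplatin libraries it ran Serpinb6a (175 FPKM), Timp2 (117), Serpinb6c (45.1), Plaur (26.2), Timp3 (16.4), Plau (14), Timp1 (10.1) and Plat (8.62), and no neighbours in this order overlapped. In control libraries it ran Timp2 (135 FPKM), Serpinb6a (72.4), Timp3 (12.5), Timp1 (9.79), Plat (9.48), Plaur (8.92), Plau (1.00) and Serpinb6c (0.064), and Timp1, Plat and Plaur did not differ beyond their spread. Over the 6 input libraries, the named genes with profiles closest to Plau were Rassf1, which encodes a scaffold protein and tumor suppressor, Platr16, Tnnt2, the cardiac troponin T gene, Gon7 and n-R5s40, at root mean square distances of 0.091 to 0.129 on the log2 scale. Rassf1 averaged 31.5 ± 1.58 FPKM in cisplatin and 3.77 ± 0.301 FPKM in control libraries. Platr16, Gon7 and n-R5s40 averaged 0.555, 0.093 and 0 FPKM in control libraries and passed the filter only through their cisplatin libraries. The closest to Serpinb6c were 5 small RNA genes (Snord43, Mir343, Mir6374, mt-Tp and Mir7655), all listed at 0 in every control library, at distances of 0.151 to 0.301. Like Serpinb6c, they passed the filter only through their cisplatin libraries, where their SDs were 8.18 to 12.9 FPKM. The likeness to Serpinb6c thus restates the pattern of 0 or near 0 in control and high in cisplatin. That to Plau likewise restates its difference between the treatments, which entered the choice of members.

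Each of the 8 listed members carried an ac4C peak, with 19 peaks in all among 19049. Peaks lay in 8797 genes, beside 14852 genes listed with expression values, so nothing is read from this. The fold enrichment of a peak in precipitated over input RNA, its log2 difference between treatments and the log10 of the adjusted p of that difference are values of the authors' deposited table, whose headers do not state the direction of the difference. The data did not settle it either: peaks in genes with at most 3 fragments in control had a positive sign in 37 of 47 cases, and those in genes with at most 3 fragments in cisplatin in 32 of 39. Signs below are therefore those deposited. At the authors' adjusted p of 0.05, 13 of the 19 member peaks were called, 10 with a positive and 3 with a negative sign, where 46.2% of all peaks were called, 36.5% positive and 9.62% negative. The median log2 difference was 2.07 over the member peaks and 1.58 over all peaks, in the authors' deposited table.

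**Figure D3:**
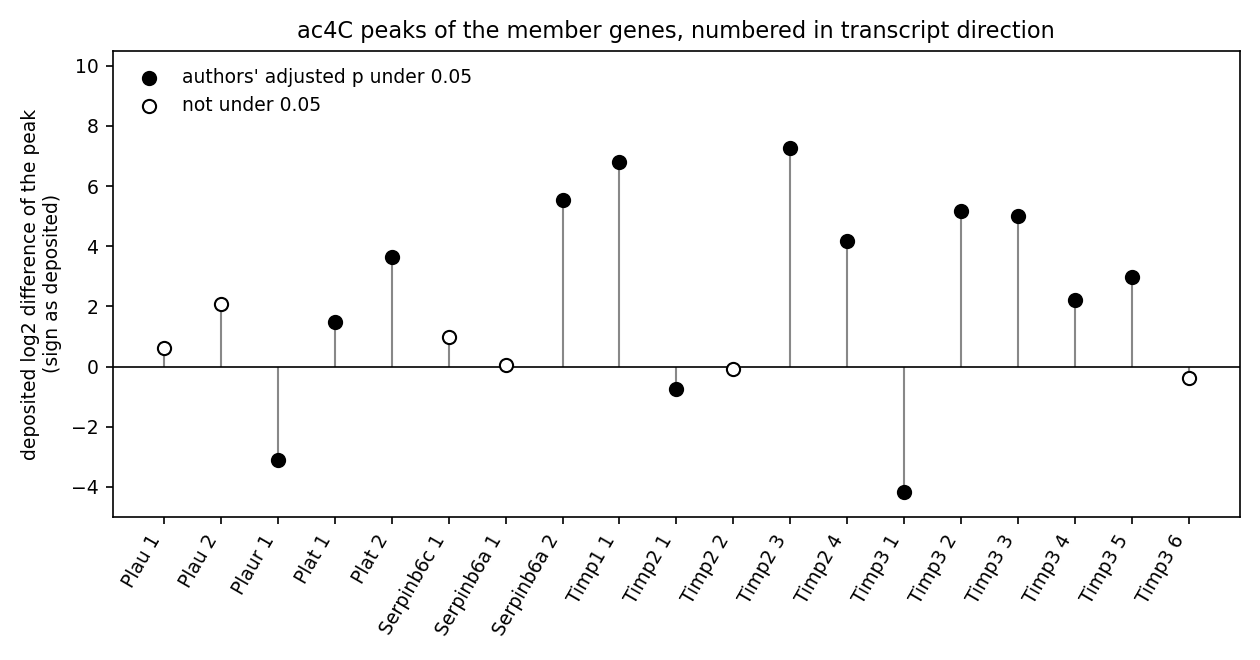
Deposited log2 difference of each of the 19 member peaks on the y axis, in the authors' sign, numbered in the direction of transcription; filled points passed the authors' adjusted p of 0.05. Plau and Serpinb6c have no filled point, and the single Plaur peak is negative at -3.10.

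Plau and Serpinb6c, the members with the most extreme RNA differences, had no called peak difference. Only 46.2% of all peaks were called, so nothing is read from this. Plau held 2 peaks of the coding class. The first, from 20836690 to 20837830 with 241 exonic bases, begins near the start of the gene and had an enrichment of 56.4-fold in the authors' deposited table, which 1.10% of all peaks reach. Its deposited log2 difference was 0.62 (log10 adjusted p -0.178), and that of the second peak, from 20839458 to 20839887 with an enrichment of 3.75-fold, was 2.07 (log10 adjusted p -0.584). The single peak of Serpinb6c, of the coding class from 33880112 to 33880756, had an enrichment of 9.40-fold and a log2 difference of 1.00 (log10 adjusted p -0.206) in the authors' deposited table; with 6 control fragments in the whole gene, little input RNA stood behind a difference there.

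Called peaks lay in members with little or no RNA difference and also in Plaur, Serpinb6a and Timp3, whose RNA was higher. The single Timp1 peak spans 5 exon blocks of the coding class (20870255 to 20873373) with an enrichment of 19.6-fold, and its deposited log2 difference was 6.81 (log10 adjusted p -14.8). Both Plat peaks, of the exon class, were called in the authors' deposited table, with log2 differences of 1.47 (22771749 to 22772681, log10 adjusted p -5.39) and 3.66 (22775577 to 22775816, log10 adjusted p -2.02). Among the genes with higher RNA, the Plaur peak (24472945 to 24475373, exon class, enrichment 16.5-fold) had a deposited log2 difference of -3.10 (log10 adjusted p -2.22), opposite in sign to most peaks. The first Serpinb6a peak along the transcript (33931535 to 33935576) was not called, with a deposited log2 difference of 0.062 (log10 adjusted p -0.281). The second (33922014 to 33923793), with an enrichment of 11.2-fold, had a deposited log2 difference of 5.55 (log10 adjusted p -34.7).

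Timp2 and Timp3 held 10 of the 19 peaks, all of the 3' untranslated class, which makes 52.6% of the member peaks beside 29.5% of all peaks. Timp3 had 6 peaks, a number that 4.4% of the 8797 genes with a peak reach, and Timp2 had 4, which 15.5% reach; the median gene had 2. Within each of these untranslated regions the deposited differences had both signs. In Timp3 the first peak (86345764 to 86346093, enrichment 18.8-fold) had a log2 difference of -4.17 (log10 adjusted p -8.07) in the authors' deposited table. The next along the transcript (86346153 to 86346303), had a deposited difference of 5.16 (log10 adjusted p -3.00). The third (86346572 to 86346872) followed with 5.01, the fourth (86347440 to 86347680) with 2.20 and the fifth (86348009 to 86348189) with 2.99, all called, and the sixth (86348788 to 86348967) was not called, at -0.36.

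In Timp2, too, the first peak was negative and the called peaks after it were positive. The first peak (118303016 to 118303436, enrichment 4.56-fold) had a deposited log2 difference of -0.76 (log10 adjusted p -7.07), and the second (118302088 to 118302417, 12-fold) was not called, at -0.064. The third (118301788 to 118301998, 13.8-fold) had 7.28 (log10 adjusted p -37.6) and the last (118301219 to 118301548, 3.68-fold) 4.16 (log10 adjusted p -43.4) in the authors' deposited table. Called peaks of both signs in a gene are not particular to these genes, since 801 of 2100 genes with at least 2 called peaks had them (38.1%).

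**Figure D4:**
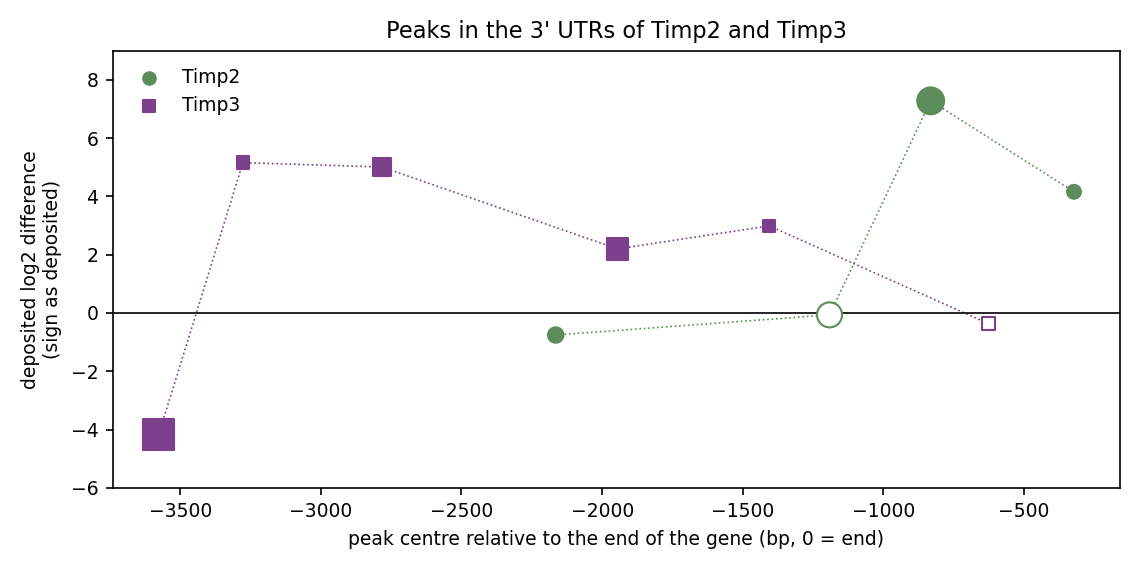
Deposited log2 difference of the Timp2 (circles) and Timp3 (squares) peaks on the y axis against the distance of the peak centre from the end of the gene in bp; the area of a symbol is in proportion to the fold enrichment and filled symbols passed the authors' adjusted p of 0.05. In both genes the peak farthest from the end is negative (-0.76 in Timp2, -4.17 in Timp3), and the highest differences are 7.28 in Timp2 and 5.16 in Timp3.

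Of 26 other genes of the plasminogen system 11 were listed and 9 tested, of which 6 rose and 2 fell by limma (adjusted p under 0.05), beside 81.3% called and 40.1% higher among all genes. Their median log2 difference was 0.30, and 0.15 with quantile normalization. Mrc2, among those that rose, passed the filter only through its cisplatin libraries. S100a10, whose product forms with annexin A2 a docking site for plasminogen, averaged 484 ± 19.99 FPKM in cisplatin and 291 ± 6.83 FPKM in control libraries (log2 difference 0.73, limma adjusted p = 2.41e-06). Anxa2 itself averaged 274 ± 10.4 FPKM in cisplatin and 193 ± 2.62 FPKM in control (0.51, limma adjusted p = 8.51e-06). Lrp1, an endocytic receptor that clears protease complexes from the cell surface, fell to 50.6 ± 4.34 FPKM in cisplatin libraries, against 110.4 ± 1.16 FPKM in control (-1.11, limma adjusted p = 1.91e-06). Serpinb2, the gene of a clade B serpin that inhibits urokinase, fell below the filter, with a mean of 0.962 ± 0.138 FPKM in cisplatin libraries, and was listed at 0 in every control library. Plgrkt, a plasminogen receptor gene, was the tested partner that was not called, with 3.97 ± 0.352 FPKM in cisplatin and 4.35 ± 0.304 FPKM in control.

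The other serpins moved in both directions. Of 12 listed, 7 were tested, of which 4 rose and 3 fell by limma, Serpinb6b included. The median log2 difference was 0.46, and it was -0.06, -0.07 and -0.04 without cisplatin replicate 1, 2 or 3, where 6 genes passed the filter. Serpinb9, which encodes an inhibitor of granzyme B, fell to 7.38 ± 0.461 FPKM in cisplatin libraries, against 22.1 ± 1.09 FPKM in control (log2 difference -1.46, limma adjusted p = 5.8e-07). Serpinh1, whose product is a collagen chaperone and no protease inhibitor, averaged 263 ± 19.2 FPKM in cisplatin and 386 ± 8.92 FPKM in control (-0.56, limma adjusted p = 5.14e-05). Serpinb1a, of an inhibitor of neutrophil proteases, averaged 2.79 ± 0.462 FPKM in cisplatin and 0.219 ± 0.0932 FPKM in control (1.63, limma adjusted p = 4.24e-06). Serpinb1a passed the filter only through its cisplatin libraries, so its p-value is given as a description.

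Among the metalloproteinases 19 of 29 listed genes were tested, of which 11 fell and 6 rose by limma (median log2 difference -0.28). Among all tested genes 41.1% were called lower and 40.1% higher. Without control replicate 1 or 2 the split was 6 fallen and 6 risen, and without control replicate 3 it was 7 and 6, with 15 genes tested; the median was then -0.10 to -0.13. Without a cisplatin replicate 4 rose and the median was -0.66 to -0.71. Adam10 and Adamts9 were among those that fell. Adam10, a sheddase of cell surface proteins, averaged 32.0 ± 0.965 FPKM in cisplatin and 54.9 ± 2.09 FPKM in control (-0.76, limma adjusted p = 1.98e-06), and Adamts9, of a proteoglycan-cleaving protease, 2.92 ± 0.181 and 11.7 ± 0.304 FPKM in the same order (-1.70, limma adjusted p = 2.75e-07). Adamts3, a procollagen-processing protease gene, had 0.0111 ± 0.0097 FPKM in cisplatin and 2.48 ± 0.0524 FPKM in control (-1.78, limma adjusted p = 2.03e-07). Mmp13, a collagenase gene, rose to 4.59 ± 0.302 FPKM in cisplatin, against 0.576 ± 0.101 FPKM in control (1.83, limma adjusted p = 6.24e-07). Adamts3, Adam4, Adamts2 and Mmp19 passed the filter only through their control libraries, and Mmp13 and Mmp27 only through their cisplatin libraries. Their calls are part of the counts above, so these counts and the p-values of Adamts3 and Mmp13 are given as a description. Adam9 had 81.2 ± 1.78 FPKM in cisplatin and 80.2 ± 1.05 FPKM in control (0.017, limma adjusted p = 0.617).

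Of 26 coagulation and thrombin receptor genes 6 were tested, of which 3 rose and 3 fell by limma (median log2 difference -0.10, and -0.43 to -0.47 without a cisplatin replicate). Procr, the protein C receptor gene, averaged 5.83 ± 0.399 FPKM in cisplatin and 0.427 ± 0.114 FPKM in control (2.26, limma adjusted p = 4.2e-07), while F2r, the main thrombin receptor gene, averaged 23.3 ± 0.784 and 32.6 ± 0.0496 FPKM in the same order (-0.47, limma adjusted p = 1.07e-05). Procr passed the filter only through its cisplatin libraries, so its p-value is given as a description. Gas6, which encodes a ligand of TAM receptors, averaged 27.9 ± 0.83 FPKM in cisplatin and 38.7 ± 0.205 FPKM in control (-0.46, limma adjusted p = 9.93e-06), and Kng1, the kininogen gene, 1.64 ± 0.168 and 5.49 ± 0.262 FPKM (-1.30, limma adjusted p = 1.93e-06). The called genes were 8 of 9 plasminogen partners, 7 of 7 other serpins, 17 of 19 metalloproteinase genes and 6 of 6 coagulation genes. These shares are above the 81.3% called among all genes, in short lists, and nothing is read from them. They include the genes that passed the filter only through the treatment where they were higher.

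**Figure D5:**
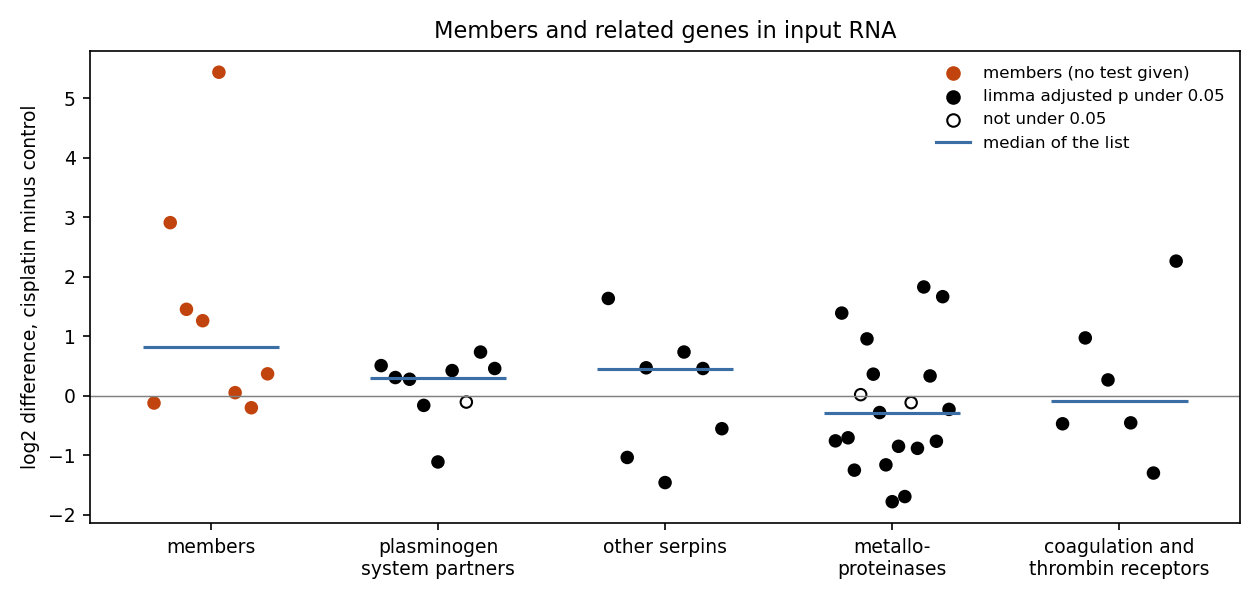
Log2 difference in input RNA, cisplatin minus control, on the y axis for the members and the tested genes of 4 related lists; each point is a gene, the members in orange with no test, the others filled black where limma's adjusted p was under 0.05, and the blue line is the median. Medians are 0.81 for the members, which were selected on this measure, 0.30 for plasminogen partners and -0.28 for metalloproteinases; without a cisplatin library that of the members is 0.33 to 0.40.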

How the data were processed

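Total RNA was freed of ribosomal RNA, fragmented, split into input and ac4C-precipitated fractions and made into strand-specific libraries, per the labels' protocols. In the submitters' processing notes stand fastp, FastQC, HISAT2, HOMER and the build mm10, without roles, and no source used here gives the counter, the peak caller or the strand setting. The authors deposited FPKM values of 6 input libraries, with log2 fold changes and p-values of their own, and a peak table with a fold enrichment (ratio) per peak, the p-value of each peak, a log2 difference and log10 p scores. Peak starts were converted to counting from 1.

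Whole fragments were recovered from the FPKM steps for 14852 of 14852 genes (tolerance 0.0001); a divisor common to all libraries would understate them. Intervals from them (exact binomial, 95%) cover counting error only. Genes with at least 1 FPKM in 3 libraries were tested with limma 3.58.1 (R 4.3.3; lmFit, eBayes with trend) on log2(FPKM + 1), cisplatin against control, with Benjamini-Hochberg adjustment over all genes and a threshold of 0.05. Labels do not say that replicates were separate cultures, so the spread behind each p-value is that of these libraries and may be technical. Tables and figures were made with scipy 1.17.1, numpy 2.4.6, matplotlib 3.10.9 and pandas 2.3.3 under Python 3.11.15. The fit was tested on simulated data.

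The members, the related lists and the motifs were chosen with earlier results of these data known. Besides the members and Serpinb6 paralogs, the text names up to 4 called genes per list with the smallest adjusted p, uncalled list genes of at least 10 FPKM, and the 5 genes closest in profile to Plau and to Serpinb6c (predicted genes, Rik genes and pseudogenes left out). 1 gene that this rule names is not reported here. Serpinb2, Plgrkt and the single markers named were picked after their values were seen. Adam4, Adamts2, Mmp19, Mmp27 and Mrc2 are named only for how they passed the filter. Gene spans and upstream sequences come from RefSeq tables of GRCm38.p6, the assembly behind mm10. Alternatives were another pseudocount, other filters and scalings, no trend, voom on recovered fragments, a replicate block, leaving out each library, the authors' test, and stricter peak thresholds.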

Additional observations from a re-analysis of the deposited data

How the results depend on the processing

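Of the 8 members, 7 kept the sign of their log2 difference under every alternative that gave a value (15, or 12 for Serpinb6c), and Timp1, which was not called, ranged from -0.06 to 0.16. Plau ranged from 2.84 to 3.8, Plaur from 1.36 to 1.55, Serpinb6a from 1.08 to 1.28, Timp3 from 0.27 to 0.40, Timp2 from -0.44 to -0.18, Plat from -0.21 to -0.08, and Serpinb6c from 5.38 to 9.70, the top of it with voom. Without a cisplatin library Serpinb6c missed the filter, which its 2 remaining high libraries could not pass. The count of called members was 5 to 7, with Plat called lower after rescaling to a common sum, with voom and without control replicate 3. With a filter at 5 FPKM 5934 genes were called in all, 4 of the other serpins and 7 metalloproteinase genes, as fewer genes were tested, and the median of the other serpins was -0.80. Without a filter the median of the coagulation genes was 0.30. Without a filter 12 other serpins were called; by the authors' test 12 other serpins and 26 metalloproteinase genes were, over all listed genes. Leaving out a library gave 7741 to 8666 called genes in all. The split of all called genes was 4064 higher and 5316 lower with a common sum, and 4384 higher and 3425 lower without control replicate 1, against 4596 and 4707. Same-numbered libraries showed no pairing in the correlations of their deviations from the group means (0.0975, -0.116 and 0.0428). With 3 libraries per group these correlations cannot exclude a pairing. The replicate block gave 9276 called genes, against 9303 without it, with 6 members called in both. Of the member peaks, 13 were called at an adjusted p of 0.01 and 12 with a log2 difference of at least 1 in size. Depth limits Serpinb6c in control libraries, where it had 6 fragments in all.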
